A study of Rattus norvegicus with 4 samples.

Results

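The genes described here are 36 genes of the hypoxia response and of glycolysis, measured in 4 mammary cancers of female Sprague-Dawley rats, an outbred stock. They were a fixed list of gene names, chosen with earlier results of these data known. Each gene was read from the probe sets that the array annotation assigns to that gene and to no other. Of the 36 genes, 35 had such a probe set, 55 probe sets in all, out of 14218 genes so measured on the array. They fall into 22 glycolytic enzymes and transporters, 12 other hypoxia targets and 2 transcription factors. All 4 cancers belong to 1 group, for which the labels name no engineered allele. Every rat in that group received 1 whole-body exposure of 0.5 Gy of carbon ions at an age of 7 weeks, with a beam energy of 290 MeV/u and a 6-cm spread-out Bragg peak, the widened depth range over which an ion beam gives its dose. The diet held 23.5% corn oil from 9 weeks of age. Each cancer was hybridised to 1 array, and whether each came from a different animal is not stated. Cancers of unirradiated rats and normal gland were not analysed here, so the values describe how the 4 cancers differ and not an effect of the ions or the diet.

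When oxygen is scarce, the prolyl hydroxylases of the Egln family stop marking the alpha subunits of the hypoxia-inducible factors, HIF-1α (Hif1a) and HIF-2α (Epas1), for destruction through the von Hippel-Lindau protein (Vhl). The stabilised subunits bind the hypoxia response element, a short DNA sequence, and raise the transcription of genes for glucose uptake, glycolysis, lactate export, pH control, blood vessel growth and collagen folding. The control of the alpha subunits is thus largely at the protein level, which an mRNA array does not read. Solid tumours often hold poorly perfused areas, and many also run glycolysis at a high rate where oxygen is present.

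Levels are log2 of the deposited signal plus 16. A gene counted as expressed where the mean of its probe set over the 4 tumours was at least 7.81, the median over all probe sets, and 33 of the 36 genes passed. Hk2, at a mean of 7.76, and Adm, at 6.44, did not pass, and Pkm, the gene of muscle pyruvate kinase, had only a probe set that also names another gene. Car9, at a mean of 7.90, passed only through its level in tumour 4. It is part of the counts of genes highest in tumour 4 given below. With 1 group and 1 array per tumour no test of a difference was possible, and each count is set beside the same count over the 9402 expressed genes of the array. The SD given is that between the 4 tumours and holds biological and technical spread together. The 4 arrays were alike in scale, with median signals of 202 to 222, and levels of expressed genes correlated at 0.893 to 0.955 between tumours, across genes, which are not independent replicates. The 3′ to 5′ difference of the GAPDH control probe sets, a sign of RNA integrity, lay between -0.02 and 0.04 log2, that of actin between 0.30 and 0.48 and that of hexokinase between 1.10 and 1.21. All 9 luminal markers and all 6 measured basal markers were expressed, and these mark the epithelium of the mammary gland, the labelled tissue. The samples are bulk tissue, so fewer cells of a type and less RNA per cell cannot be told apart.

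Tumour 4 held the highest level of most of the genes. It was highest for 26 of the 33 expressed genes, against 21.1% of all expressed genes. Tumour 1 was highest for 6 (background 28.0%), tumour 3 for 1 (background 24.5%) and tumour 2 for none (background 26.4%). By class, tumour 4 led 17 of 20 expressed enzymes and transporters, 8 of 11 other hypoxia targets and 1 of the 2 transcription factors. Set against the mean of the other 3, tumour 4 was above it for 29 of the 33 genes (background 47.5%). The median of that difference was 0.54 for enzymes and transporters and 0.74 for the other hypoxia targets, against -0.02 over all expressed genes. Without tumour 1 the median of the other hypoxia targets was 1.12 and tumour 4 led all 11 of them. Of all expressed genes tumour 4 then led 30.9%, with a median difference of -0.04. The level spanned at least 1 log2, a 2-fold range, in 13 of the 33 genes (background 12.4%), of which 6 were enzymes or transporters and 7 other hypoxia targets. Without tumour 4 these counts fell to 1 and 2, and the share of all expressed genes to 9.34%. In 6 of the 33 genes the highest tumour was separated from the next by a share of the range past Dixon's 95% critical value, while 5.63% of all expressed genes were past it at either end. The median SD between tumours was 0.40 over the 33 genes and 0.21 over all expressed genes. When the arrays were shifted to a common median the share of all genes highest in tumour 4 fell to 13.9%, while the count of enzymes and transporters it led was 15 and that of other hypoxia targets 8.

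**Figure D1:**
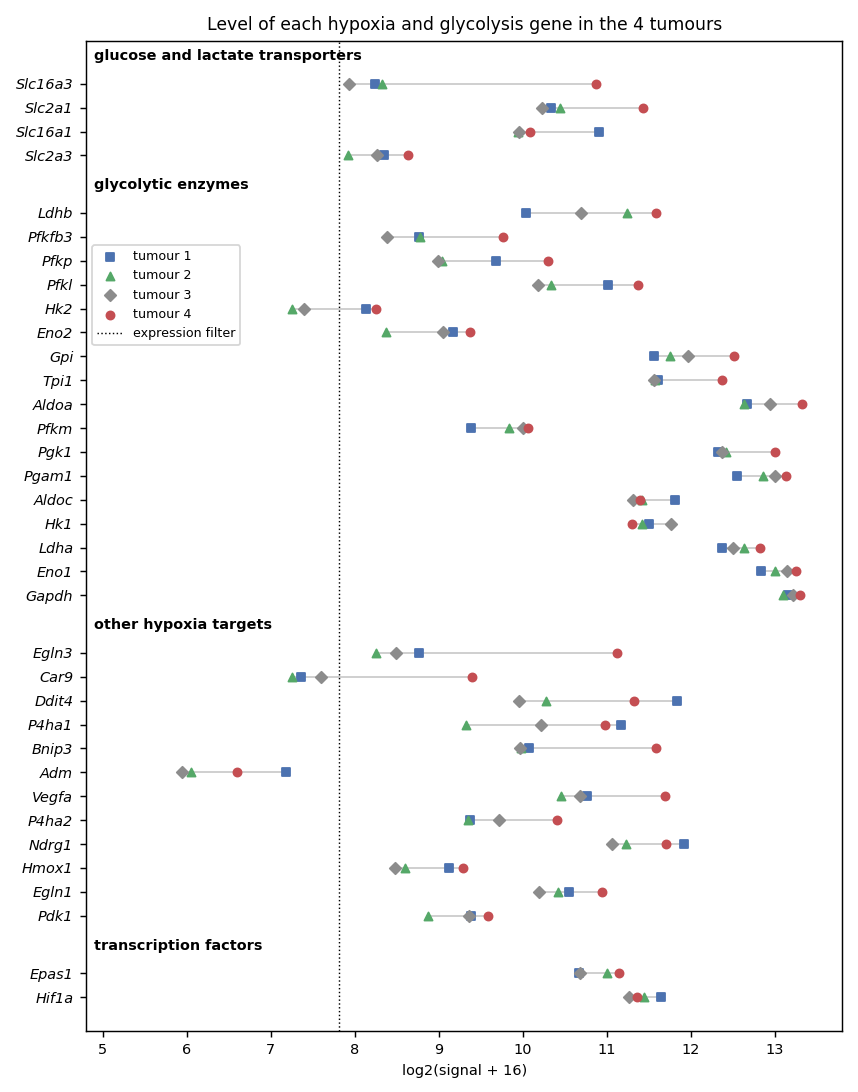
Level of each of the 35 measured genes in the 4 tumours, in log2(signal + 16), with 1 point per tumour, ordered by range within each class; the dotted line is the expression filter at 7.81. Tumour 4 lies far to the right for Slc16a3, Egln3, Car9 and Bnip3, while Ddit4, P4ha1 and Slc16a1 are highest in tumour 1.

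**Figure D2:**
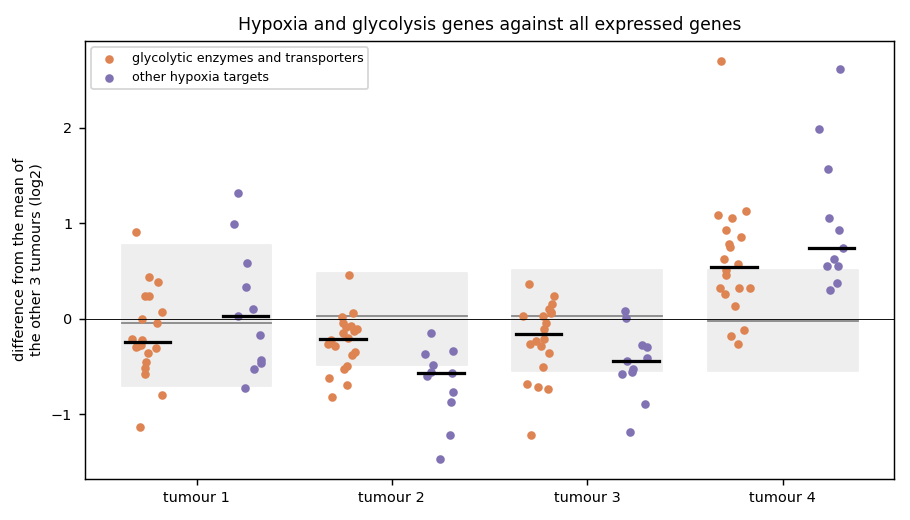
Each tumour minus the average of the remaining 3 (log2) for the expressed genes of each class, with 1 point per gene; the grey band holds the central 90% of all expressed genes and lines mark medians. The medians of both target classes lie above 0 in tumour 4, at 0.54 and 0.74, while those of the other tumours lie between -0.57 and 0.03.

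4 of these genes stood at least 1 log2 higher in tumour 4 than in each other tumour: Slc16a3, Egln3, Car9 and Bnip3. Over all expressed genes 36 did so, or 0.383%. Car9 passed the expression filter only through tumour 4, the same tumour for which it is counted here. The promoters of Car9 and Bnip3, which hold the core of the hypoxia response element, are shown here beside those of Ddit4 and P4ha1, the hypoxia targets highest in tumour 1 that had the largest ranges. Each window is the RefSeq promoter on the GRCr8 assembly, from 250 bases before to 50 bases after the annotated start, read 5′ to 3′ on the strand of the gene. The windows are chr5:62558774-62559073 on the plus strand for Car9, chr1:203154913-203155212 on the minus strand for Bnip3, chr20:28436988-28437287 on the minus strand for Ddit4 and chr20:27844796-27845095 on the plus strand for P4ha1. Capitals mark each match to the core ACGTG or to CACGT, the same core on the other strand.
Car9: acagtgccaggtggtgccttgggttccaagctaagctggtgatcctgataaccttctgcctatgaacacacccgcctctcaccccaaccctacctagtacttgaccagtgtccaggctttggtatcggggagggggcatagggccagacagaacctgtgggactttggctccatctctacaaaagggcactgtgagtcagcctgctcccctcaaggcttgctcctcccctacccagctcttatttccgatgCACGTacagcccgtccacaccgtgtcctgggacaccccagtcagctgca
Bnip3: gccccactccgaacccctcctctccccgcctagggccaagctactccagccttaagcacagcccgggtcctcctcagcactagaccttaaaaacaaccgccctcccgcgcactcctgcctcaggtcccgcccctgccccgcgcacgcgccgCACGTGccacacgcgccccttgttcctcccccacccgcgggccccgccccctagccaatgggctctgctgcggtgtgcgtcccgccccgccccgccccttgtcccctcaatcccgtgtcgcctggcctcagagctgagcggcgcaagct
Ddit4: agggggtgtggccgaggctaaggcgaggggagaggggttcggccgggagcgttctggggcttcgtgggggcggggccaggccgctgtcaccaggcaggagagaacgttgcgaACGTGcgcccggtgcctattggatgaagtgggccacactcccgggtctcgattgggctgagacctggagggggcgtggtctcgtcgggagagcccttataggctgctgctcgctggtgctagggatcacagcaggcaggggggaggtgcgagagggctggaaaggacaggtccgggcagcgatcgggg
P4ha1: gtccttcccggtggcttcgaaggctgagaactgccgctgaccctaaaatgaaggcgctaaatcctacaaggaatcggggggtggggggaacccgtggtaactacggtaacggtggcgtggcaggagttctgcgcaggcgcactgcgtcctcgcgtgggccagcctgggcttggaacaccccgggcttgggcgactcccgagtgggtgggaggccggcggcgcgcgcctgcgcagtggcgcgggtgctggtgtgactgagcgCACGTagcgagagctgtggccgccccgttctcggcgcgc

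Of the 35 measured genes, 31 had a promoter in the RefSeq table. The core ACGTG was present on either strand in 18 of these 31 (58.1%), in 26.5% of the 7860 promoters of expressed genes and in 19.7% of all 27457 promoters of the same length. It was found in 10 of 19 enzymes and transporters (52.6%) and in 7 of 10 other hypoxia targets (70.0%). The other form of the core, GCGTG, did not stand apart in this way, being present in 16 of the 31 promoters (51.6%) and in 51.6% of those of expressed genes. The palindrome CACGTG holds the core on both strands and is also the E-box read by MYC and other factors. It was present in 5 of the 31 promoters (16.1%) and in 9.92% of those of expressed genes. Median GC content was 63.3% for the 31 promoters and 61.7% for those of expressed genes. Within the 31 promoters, ACGTG was present in 13 of 24 genes that were highest in tumour 4 (54.2%) and in 5 of 7 that were highest in another tumour (71.4%). Neither form was found in the windows of Slc16a3 and Egln3, the genes with the largest differences in tumour 4, nor in that of Vegfa. A match is a description of the sequence and not a site that was shown to be bound, and response elements can lie outside such a window.

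**Figure D3:**
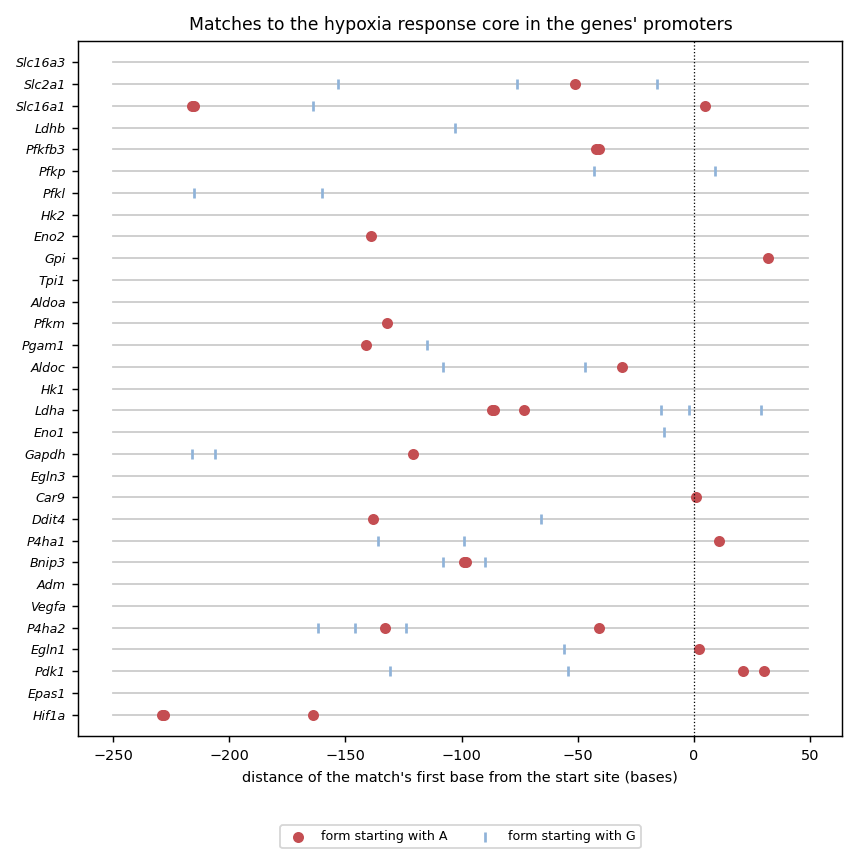
Position of each match to ACGTG (red points) and GCGTG (blue bars), on either strand, in the promoters of 31 genes; the horizontal axis is the distance of the first base of the match from the annotated start, in bases, and each line is 1 gene. In all 18 lines hold a red point and 22 hold a match of either form. The empty lines are those of Slc16a3, Egln3, Vegfa, Hk1, Hk2, Aldoa, Tpi1, Adm and Epas1.

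Among the transporters, Slc16a3, which encodes MCT4, the exporter of lactate from glycolytic cells, differed most. Its level was 8.24, 8.32 and 7.93 in tumours 1 to 3 and 10.87 in tumour 4 (SD 1.36, n = 4). The signal in tumour 4 was 6.10 times that of the next tumour, and its excess over the averaged other tumours, 2.70 log2, ranked 6 of 9402. Slc2a1, the widely expressed glucose transporter GLUT1, was at 10.34, 10.44 and 10.23 in tumours 1 to 3 but 11.43 in tumour 4 (SD 0.55), a signal 1.99 times that of the next tumour. For both genes the other 3 tumours lay close together and tumour 4 stood alone above them. Slc2a3, the high-affinity glucose transporter GLUT3, showed a smaller spread, at 8.34, 7.92, 8.26 and 8.63 in tumours 1 to 4. Slc16a1 encodes MCT1, which carries lactate in either direction, and it ran differently from Slc16a3. It was at 10.91 in tumour 1 and between 9.94 and 10.09 in the other 3 (SD 0.46), so the highest tumour differed between the monocarboxylate carriers.

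The early enzymes of glycolysis were highest in tumour 4, with the exception of Hk1. Hk1, the hexokinase of most tissues, was lowest in tumour 4 at 11.30, with 11.50, 11.42 and 11.77 in tumours 1 to 3. Hk2, the hypoxia-inducible hexokinase, was under the expression filter on average, being at 8.13 in tumour 1 and 8.25 in tumour 4 against 7.25 in tumour 2 and 7.39 in tumour 3. Gpi, which turns glucose 6-phosphate into fructose 6-phosphate, was at 11.56, 11.75, 11.97 and 12.51 in tumours 1 to 4 (SD 0.41). Phosphofructokinase commits sugar to glycolysis, and its 3 subunit genes differed in size of spread. The liver subunit Pfkl was at 11.01, 10.33, 10.17 and 11.37 in tumours 1 to 4 (SD 0.56). The platelet subunit Pfkp was at 9.68, 9.04, 8.99 and 10.29 (SD 0.61). Both thus had tumour 1 second and tumours 2 and 3 together below it. The muscle subunit Pfkm was at 9.38 in tumour 1, 9.83 in tumour 2 and 10.06 in tumour 4, with tumour 3 only 0.06 below tumour 4 and leading after the shift to a common median. Pfkfb3 makes fructose 2,6-bisphosphate, the main activator of phosphofructokinase. It was at 8.76, 8.77 and 8.38 in tumours 1 to 3 but 9.77 in tumour 4 (SD 0.59), a signal 2.03 times that of the next tumour.

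All expressed enzymes of the lower pathway but Aldoc were highest in tumour 4, by steps of 0.08 for Gapdh, whose lead did not hold under every scaling, to 0.76 for Tpi1. Aldoa, the aldolase of muscle and most cells, was at 12.66, 12.63, 12.93 and 13.32 in tumours 1 to 4, whereas Aldoc, the brain isoform, was highest in tumour 1 at 11.81, against 11.30 to 11.41 in the others. Tpi1, the triose phosphate isomerase, was within 0.05 in tumours 1 to 3, at 11.61, 11.57 and 11.56, and reached 12.36 in tumour 4 (SD 0.39), a signal 1.69 times the next. Pgk1, which makes the first ATP of the pathway, showed the same form at 12.32, 12.41 and 12.36 in tumours 1 to 3 and 13.00 in tumour 4 (SD 0.32). Tumour 4 was thus set off from 3 near-equal tumours for both enzymes, for Pgk1 in its brighter probe set. In the other expressed probe set of Pgk1, tumour 1 was at 11.07 and tumours 2 and 3 at 11.33 and 11.38. Gapdh varied least, from 13.10 to 13.29 (SD 0.08). It rests on the array's control probe sets, and its highest tumour became tumour 3 after the shift to a common median and tumour 1 after quantile normalisation. Pgam1 was at 12.55, 12.85, 13.00 and 13.13 in tumours 1 to 4. Eno1, the common enolase, was at 12.83, 13.00, 13.14 and 13.25. In both, tumour 4 exceeded tumour 3 by no more than 0.13. Eno2, the neuronal enolase, was lowest in tumour 2 at 8.37 and between 9.05 and 9.37 in the others.

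The lactate dehydrogenase genes, whose subunits assemble into 1 enzyme, differed in spread. Ldha, the subunit induced by hypoxia, was at 12.37, 12.63, 12.50 and 12.82 in tumours 1 to 4 (SD 0.19). Ldhb, the subunit typical of oxidative tissue, had the widest range of all enzymes, at 10.04, 11.23, 10.69 and 11.59 (SD 0.67). Both were lowest in tumour 1 and highest in tumour 4, but the range was 0.45 for Ldha and 1.55 for Ldhb.

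Of the hypoxia targets outside glycolysis, Egln3 differed most. It encodes PHD3, the oxygen-sensing prolyl hydroxylase that HIF itself induces. Its level was 8.77, 8.25 and 8.49 in tumours 1 to 3 and 11.12 in tumour 4 (SD 1.33), a signal 5.27 times that of the next tumour, and its difference ranked 7 of 9402. Egln1, the main prolyl hydroxylase PHD2, was also highest in tumour 4, with a smaller spread, at 10.55, 10.41, 10.20 and 10.94. Car9, the cell-surface carbonic anhydrase widely used as a hypoxia marker, was at 7.36, 7.25 and 7.59 in tumours 1 to 3, all under the expression filter, but 9.39 in tumour 4 (SD 1.01). The ratio of 3.70 to the next tumour thus rests on low signals in its lower term. Bnip3, a mitophagy receptor, was at 10.07, 9.98 and 9.97 in tumours 1 to 3 but 11.58 in tumour 4 (SD 0.79), 2.86 times the next in signal. For all 4 of these genes tumours 1 to 3 lay within 0.52 of each other and tumour 4 was above them.

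Vegfa, the vessel growth factor, was at 10.77, 10.45 and 10.68 in tumours 1 to 3 but 11.69 in tumour 4 (SD 0.54). P4ha2, a catalytic subunit of the collagen prolyl hydroxylase, was at 9.36, 9.34, 9.71 and 10.40 in tumours 1 to 4 (SD 0.49). Tumour 4 stood above the next tumour by 0.92 for Vegfa and by 0.69 for P4ha2. Pdk1, the kinase that shuts pyruvate dehydrogenase, was lowest in tumour 2 at 8.87 and between 9.36 and 9.58 in the others. Hmox1, the haem oxygenase induced by many stresses, reached 9.12 in tumour 1 and 9.28 in tumour 4, against 8.60 in tumour 2 and 8.48 in tumour 3.

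A second pattern set tumour 1 apart with tumour 4. Ddit4, which encodes REDD1, a brake on mTORC1 under hypoxia and other stress, reached 11.83 in tumour 1 and 11.32 in tumour 4, against 10.27 in tumour 2 and 9.96 in tumour 3 (SD 0.88). P4ha1, like P4ha2, encodes a catalytic subunit of collagen prolyl hydroxylase. It had levels of 11.16 in tumour 1, 10.98 in tumour 4, 10.22 in tumour 3 and 9.32 in tumour 2 (SD 0.84). Ndrg1, a stress-induced gene, reached 11.91 in tumour 1 and 11.70 in tumour 4, against 11.22 in tumour 2 and 11.06 in tumour 3. Adm, the gene of the peptide adrenomedullin, had the same order under the expression filter, at 7.18 in tumour 1, 6.59 in tumour 4 and 5.95 to 6.05 in the others. Tumours 1 and 4 were the highest pair for 9 of 11 expressed hypoxia targets outside glycolysis and for 6 of 20 enzymes and transporters, against 15.7% of all expressed genes. With tumour 4 left out, tumour 1 was the highest of the remaining 3 for 9 of 11 other hypoxia targets and for 7 of 20 enzymes and transporters (background 34.0%). Both counts of 9 hold the same genes, so the second adds nothing to the first. In some of them tumour 1 led narrowly, at 10.07 against 9.98 in tumour 2 for Bnip3. It was at 10.77 for Vegfa and 9.38 for Pdk1, against 10.68 and 9.36 in tumour 3. The classes were not tested against each other.

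**Figure D4:**
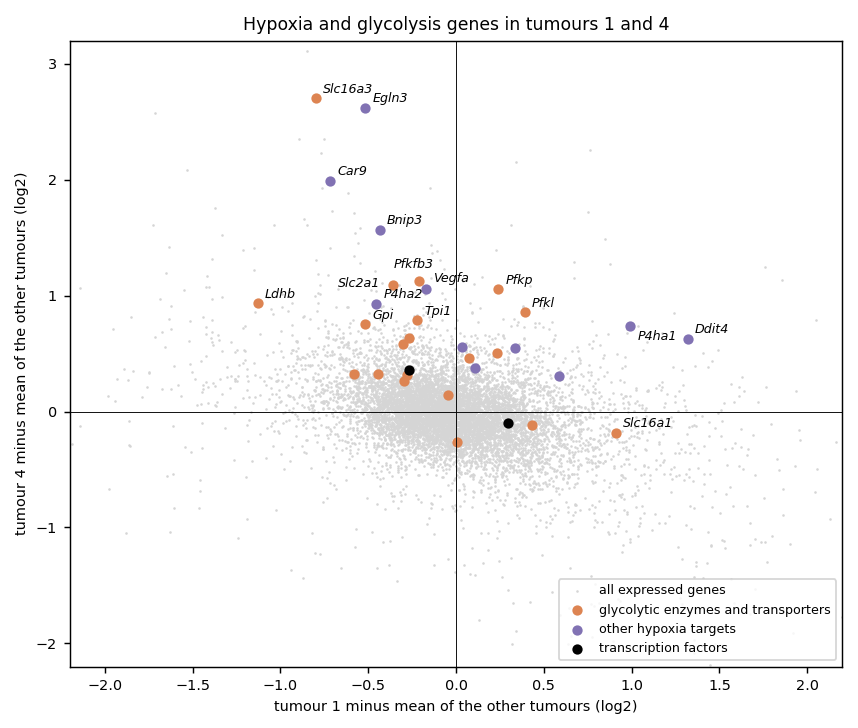
Difference of tumour 1 (horizontal axis) and of tumour 4 (vertical axis) from the averaged remaining tumours, both in log2, for each expressed gene; 60 genes lie outside the axes. Slc16a3, Egln3, Car9 and Bnip3 lie high and left, while Ddit4 and P4ha1 lie to the right with values above 0 on both axes. The mean subtracted from tumour 1 includes tumour 4, so a high level in tumour 4 moves a gene to the left. For Egln3 and Bnip3 tumour 1 was the second highest.

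Of the transcription factors, Hif1a varied little, as did Epas1 in its brighter probe set. Hif1a was at 11.65, 11.44, 11.26 and 11.35 in tumours 1 to 4 (SD 0.16), and Epas1 at 10.67, 11.00, 10.68 and 11.14 (SD 0.23). Tumour 4 was thus below tumours 1 and 2 for Hif1a, and 0.14 above tumour 2, the next, for this probe set of Epas1. The other expressed probe set of Epas1 was at 8.44, 8.30, 8.19 and 9.11 in tumours 1 to 4. In that probe set the range was 0.92, and tumour 4 was 0.80 above the mean of the others. Of the genes that control the factors 8 of 13 listed were expressed, none had a 2-fold range (12.4% of all expressed genes), and tumour 2 was highest for 5 (26.4% of all), in Elob with tumour 4 at the same level. The 3 with the largest ranges were Rbx1 at 11.23, 11.96, 11.95 and 11.51, Siah1 at 9.34, 9.39, 8.86 and 9.34, and Elob at 11.45, 11.97, 11.96 and 11.97. All 3 act in ubiquitin ligases. Vhl itself lay between 9.79 and 10.03.

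Further hypoxia targets, a list of 29 genes outside the 36 and also chosen with earlier results known, were expressed in 20 cases. Of these 8 had a 2-fold range (12.4% of all expressed genes) and 12 were highest in tumour 4 (21.1% of all), with a median difference of 0.40 in that tumour. The 3 with the largest ranges went separate ways. Lox, the collagen cross-linking lysyl oxidase, was lowest in tumour 4, at 10.85, 9.48, 9.32 and 7.98 in tumours 1 to 4. Igfbp3, a binding protein of insulin-like growth factors, was lowest in tumour 2, at 11.42, 9.52, 10.86 and 10.99. Ak4, a mitochondrial adenylate kinase, was highest in tumour 4, at 8.13, 7.77, 7.76 and 9.26.

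The lists of the routes that branch from glycolysis were short. Their counts of genes highest in tumour 4 are given only as a description, beside the 21.1% of all expressed genes. None of 6 expressed genes of the pentose phosphate pathway, which makes NADPH and ribose, was highest there, and the median difference in tumour 4 was -0.17. Pgd was at 10.95, 11.56, 11.81 and 11.65 in tumours 1 to 4, Tkt at 11.46, 11.94, 12.08 and 11.68, and Taldo1 at 11.46, 11.60, 11.65 and 11.23. Of 11 expressed genes of pyruvate entry into mitochondria, the pyruvate dehydrogenase list, 1 was highest in tumour 4, and the median difference was -0.22. Mpc1, a subunit of the mitochondrial pyruvate carrier, was at 11.06, 11.30, 10.96 and 10.48. Pdp2, a phosphatase that opens the complex, was at 7.79, 8.19, 7.86 and 7.45, and Pdk4, another kinase that shuts it, at 8.65, 8.43, 9.04 and 8.70. No gene of these 2 lists had a 2-fold range, against 12.4% of all expressed genes. Of the other isoforms and branches of glycolysis 4 of 17 were expressed. All 4 had a 2-fold range (12.4% of all expressed genes), and 1 was highest in tumour 4. Fbp2, the muscle isoform of the gluconeogenic bisphosphatase, was at 6.30 in tumour 1 and between 8.70 and 9.13 in the others. Gpd1, which links glycolysis to lipid synthesis, was highest in tumour 2 at 9.54, and the fructose transporter Slc2a5 in tumour 1 at 8.45.

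**Figure D5:**
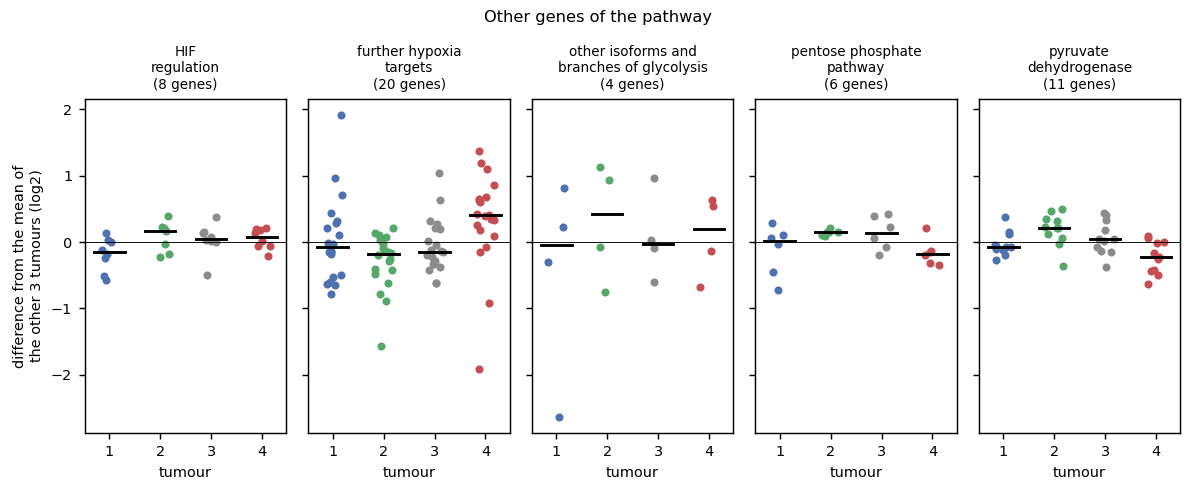
Each tumour minus the average of the remaining 3 (log2) for the expressed genes of 5 other pathway lists, 1 panel per list and 1 point per gene, with a line at each median. In tumour 4 the median of the further hypoxia targets is 0.40, while those of the pentose phosphate and pyruvate dehydrogenase lists are -0.17 and -0.22.

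The highest tumour was compared between probe sets of the same gene. For all 7 genes with a further expressed probe set, that probe set was highest in the same tumour, and of 8 further probe sets under the filter 5 were. The 3 that differed belong to Egln1, Hk1 and Slc16a1. The other expressed probe set of Pgk1 was at 11.07, 11.33, 11.38 and 12.22, and that of Vegfa at 9.64, 9.06, 9.39 and 10.32. Tumour 4 was thus highest in both expressed probe sets of these genes.

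Markers of other cell types also differed between the tumours, and their part in the results was not tested. The summed signal of 6 fibroblast markers was 11830 in tumour 4 and 29348 to 37745 in the others, and each of the 6 was lowest there. Hbb, the β-globin of red blood cells, was at 10.74, 10.21, 11.32 and 12.99 in tumours 1 to 4. The red cell genes Alas2 and Slc4a1 were under the filter on average but were also highest in tumour 4. Alas2 was at 9.51 there against 5.17 to 7.41 in the others, and Slc4a1 at 8.23 against 5.66 to 7.43. These 3 genes summed to 9115 in tumour 4 and to 1349 to 2732 in the others. The 6 basal markers gave summed signals of 26096 in tumour 1 and 26905 in tumour 4, against 21765 in tumour 2 and 17137 in tumour 3. Of these markers 3 were highest in tumour 1 and 3 in tumour 4, and Acta2 was lowest in tumour 1. Tumour 1 had the highest sum of the 10 macrophage markers, 20348 against 7638 to 12405 in the others, with Itgam under the filter, and the lowest of the 9 luminal markers, 32784 against 55712 to 66009. It was lowest for 8 of the 9 luminal markers, while Elf5 was highest there. The 7 endothelial markers summed to between 2351 and 3323 in every tumour, with Pecam1 under the filter. Of adipocyte, skeletal muscle and neutrophil markers, 1 of 6, 1 of 7 and 0 of 3 measured genes were expressed. The 3 neutrophil markers still summed to 1071 in tumour 1 against 126 to 356 in the others. The 6 proliferation markers were all highest in tumour 2 and their sum was lowest in tumour 4, at 3929 against 4229 to 6590.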

How the data were processed

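Biotin-labelled RNA of each of 4 mammary cancers was hybridised to 1 rat expression array. The deposited values were linear intensity values, 1 per probe set, scaled so that the mean after trimming 2% at each end was 500.1 on every array, as computed from the deposited table. The software and the background correction were not given in the sources used here. Of the probe sets, 20832 were annotated to 1 gene, 436 to several and 9831 to none, and those naming several were not used. A gene took its probe set of highest mean, with control probe sets used where it had no other. Levels are log2(signal + 16), which understates differences of low signals. The text names all 36 genes and, from each other pathway list, the 3 expressed genes with the largest range. The genes and lists were chosen with earlier results of these data known. Vhl was named after its values were seen. Replicate numbers only name the tumours. RefSeq promoters (GRCr8) were matched by gene ID, and the first listed start was used for the 4 genes with several. Slc2a3, Pgk1, Ndrg1 and Hmox1 were not in that table. Python 3.11.15, numpy 2.4.6 and pandas 2.3.3 were used.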

Additional observations from a re-analysis of the deposited data

Results flagged for a closer look

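In 6 of 35 measured genes, all 6 among the 33 expressed, the highest tumour stood further from its neighbour, as a share of the whole range over the 4 tumours, than Dixon's 95% critical value for 4 samples. That share was 0.941 for Tpi1, 0.933 for Bnip3, 0.868 for Pgk1, 0.867 for Slc16a3 and 0.838 for Car9, with tumour 4 highest in each, and 0.848 for Slc16a1, with tumour 1 highest. Each share rests on the gene's probe set of highest mean, and the other expressed probe set of Pgk1 was not examined in this way. Car9 passed the expression filter only through tumour 4. Among the 15 further pathway genes named, 3 were past the same value at the low end: Elob in tumour 1 at 0.969, Siah1 in tumour 3 at 0.903 and Fbp2 in tumour 1 at 0.845. Of all expressed genes 5.63% were past it at either end. Chance flags about 1 in 20 groups of independent samples, and genes measured on the same 4 arrays are not independent.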

How the results depend on the processing

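Across the 7 alternatives of scaling, pseudocount, expression filter and probe set choice, the highest tumour of a measured gene was the same in 242 of 245 comparisons, the exceptions being Gapdh under the common median and quantile scalings and Pfkm under the common median. The shift to a common median moved the all-gene medians from -0.04, 0.04, 0.03 and -0.02 in tumours 1 to 4 to -0.13, 0.10, 0.11 and -0.08. It raised the enzymes and transporters highest in tumour 3 from 1 to 3, and the share of all expressed genes highest there from 24.5% to 33.3%. With the mean of a gene's probe sets, 18 enzymes and transporters in place of 20 passed the filter. Those highest in tumour 1 thereby fell from 2 to 1, while no gene changed its highest tumour. Of all expressed genes, 28.6% were highest in tumour 1 in that setting. It also moved the difference of tumour 4 from 0.325 to 1.098 for Pfkm and from 0.554 to 0.226 for Egln1. An upper quartile filter left 7 other hypoxia targets, 4 of them highest in tumour 4 (background 18.9%) in place of 8 of 11 (background 21.1%).

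Leaving out 1 tumour at a time, enzymes and transporters with a 2-fold range numbered 1 to 6 and other hypoxia targets 2 to 7, the low end in both being without tumour 4. Enzymes and transporters highest in tumour 1 numbered 2 to 7, in tumour 2 0 to 6 and in tumour 3 1 to 7. Other hypoxia targets highest in tumour 1 numbered 3 to 9, in tumour 3 0 to 2 and in tumour 4 8 to 11. Their median difference in tumour 4 was 0.567 to 1.122, the upper ends for tumour 4 being without tumour 1. All upper ends for tumours 1 to 3 were without tumour 4. In that setting tumours 1 to 3 were highest for 34.0%, 32.5% and 33.6% of all expressed genes. Without tumour 1, tumour 4 was highest for 30.9%. The median difference of enzymes and transporters ranged from -0.333 to 0.001 in tumour 1, from -0.326 to -0.017 in tumour 2 and from -0.226 to 0.027 in tumour 3, the upper end in each being without tumour 4. Without tumour 4, 9.34% of all expressed genes had a 2-fold range. No paired analysis was possible because the labels give 1 group. With 4 arrays, the number of tumours limits the precision of every SD, and signals near the filter limit Car9, Hk2 and Adm.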
